A study of Mus musculus with 8 samples.

Results

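The genes described here mark the oligodendrocyte lineage from its precursor to the newly formed oligodendrocyte: Pdgfra, Cspg4, Olig1, Olig2, Sox10, Gpr17, Bcas1 and Enpp6. They were taken by gene symbol from the deposited value columns, where all 8 were listed among 24946 genes, and all 8 had at least 1 TPM (transcripts per 1000000) in at least 2 of the 8 libraries, as 14365 genes did. Cspg4 met this minimum in all 4 libraries of restrained mice but in 1 of the 4 libraries of naive mice, so it was kept largely through the restrained group. The samples were pools of lateral septa from wild-type C57Bl6J mice, 4 to 6 mice per pool. Restraint-stressed mice (RS) were held for 1 h in a flexible cone, whereas naive mice were left undisturbed in their cage. The labels put the killing 1 h after restraint, whereas the study's methods give no such interval. From each pool, PhosphoTrap gave an IP library, the RNA held by 4 ug of an antibody against phosphorylated ribosomal protein S6 (pS6), and an input library, the RNA of the lysate before capture. The groups were therefore RS IP, naive IP, RS input and naive input, with 2 libraries each. Such libraries are made from whole tissue, so fewer cells of a type and less RNA per cell cannot be told apart in them.

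Oligodendrocyte precursors are dividing glia spread through grey and white matter. They respond to platelet-derived growth factor through the receptor PDGFRα, the product of Pdgfra, and carry the proteoglycan NG2, the product of Cspg4. Olig1, Olig2 and Sox10 encode transcription factors that are kept through the whole lineage. As a precursor commits to differentiation it loses PDGFRα and NG2, passes through a stage marked by the receptor GPR17 and by BCAS1, and then, as it begins to make myelin, carries the choline phosphodiesterase ENPP6. Myelin genes such as Mbp (myelin basic protein) follow and stay on in the mature cell. Phosphorylation of S6 follows neuronal activity in many circuits, and S6 is also a ribosomal protein of glia.

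In RS input 4 of the genes were called higher, as described below. RefSeq start sites were available for Pdgfra and Enpp6 among them, but not for Gpr17 or Olig1. The 250 bases before the start sites of Pdgfra and Enpp6 (GRCm38.p6, plus strand) are shown beside those of Olig2, which did not pass that test. The Enpp6 call depended on the scaling. Capitals mark the motif letters that a search of both strands found: the E-box CANNTG, which basic helix-loop-helix factors such as OLIG2 bind, and ACAAAG or ACAATG, core letters bound by SOX factors such as SOX10.
Pdgfra, chr5:75152001-75152250: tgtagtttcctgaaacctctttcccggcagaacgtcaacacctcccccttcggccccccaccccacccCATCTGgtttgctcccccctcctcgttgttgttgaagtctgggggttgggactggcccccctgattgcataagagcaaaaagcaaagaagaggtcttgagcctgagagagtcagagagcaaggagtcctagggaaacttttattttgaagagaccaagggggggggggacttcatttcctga
Enpp6, chr8:46986637-46986886: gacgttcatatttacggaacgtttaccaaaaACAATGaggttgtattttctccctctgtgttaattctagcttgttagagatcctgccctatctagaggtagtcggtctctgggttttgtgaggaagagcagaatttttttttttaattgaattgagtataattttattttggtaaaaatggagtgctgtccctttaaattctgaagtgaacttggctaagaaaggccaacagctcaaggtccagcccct
Olig2, chr16:91225300-91225549: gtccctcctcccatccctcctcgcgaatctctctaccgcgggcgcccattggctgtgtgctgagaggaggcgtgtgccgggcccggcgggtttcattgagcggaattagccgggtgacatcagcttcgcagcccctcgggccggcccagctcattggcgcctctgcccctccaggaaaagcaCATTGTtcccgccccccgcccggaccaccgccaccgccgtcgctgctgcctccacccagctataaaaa
The Pdgfra window held 1 CANNTG. The Enpp6 window held 1 ACAATG, and the Olig2 window held 1 ACAATG on the minus strand, printed there as CATTGT. The window of Cspg4, also matched in RefSeq, held none of these letters. Of 32851 mouse promoters of this length, 66.2% held CANNTG and 25.2% held ACAAAG or ACAATG, so the matches are common ones and none is shown to be a bound site.

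The genes lie apart in the mouse genome (GRCm38, GENCODE M21 annotation), except for the neighbours Olig2 (chromosome 16, 91225457 to 91228677) and Olig1 (chromosome 16, 91269772 to 91271933). Pdgfra occupies chromosome 5, 75152292 to 75198215, Cspg4 chromosome 9, 56865033 to 56899870, and Enpp6 chromosome 8, 46986887 to 47096762, all on the plus strand with the Olig genes. Sox10 (chromosome 15, 79154908 to 79165240), Gpr17 (chromosome 18, 31942997 to 31949636) and Bcas1 (chromosome 2, 170346991 to 170427845) are on the minus strand. Gpr17 lies wholly within Lims2 on the opposite strand, and Bcas1 overlaps the antisense gene Bcas1os2. The library kit does not mark strand, so reads shared by such pairs cannot be told apart. Lims2 was listed at 60.8 and 61.5 TPM in RS IP and 68.1 and 67.6 in naive IP, against 38.2 and 33.9 in RS input and 34.6 and 39.9 in naive input, and Bcas1os2 did not exceed 0.557 TPM in any library.

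The lineage was led by Olig1. Per length, its mean level of the 4 groups was at percentile 81.6 among the genes kept, followed by Bcas1 at 73.4, Sox10 at 54.9 and Gpr17 at 53.6. Olig2 and Pdgfra stood at 40.9 and 37.7, and Enpp6 and Cspg4 at 19.7 and 5.76. Cspg4 of precursors and Enpp6 of new myelin-forming cells were thus the lowest, and Pdgfra, the other precursor marker, lay near Olig2. The 8 genes summed to 133 to 139 TPM in RS IP and 131 to 132 TPM in naive IP, against 198 to 200 TPM in RS input and 167 to 172 TPM in naive input. For scale, Mbp alone was listed at 1271 and 1330 TPM in RS IP and 1256 and 1233 TPM in naive IP, against 5271 and 4885 TPM in RS input and 4328 and 4253 TPM in naive input.

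**Figure D1:**
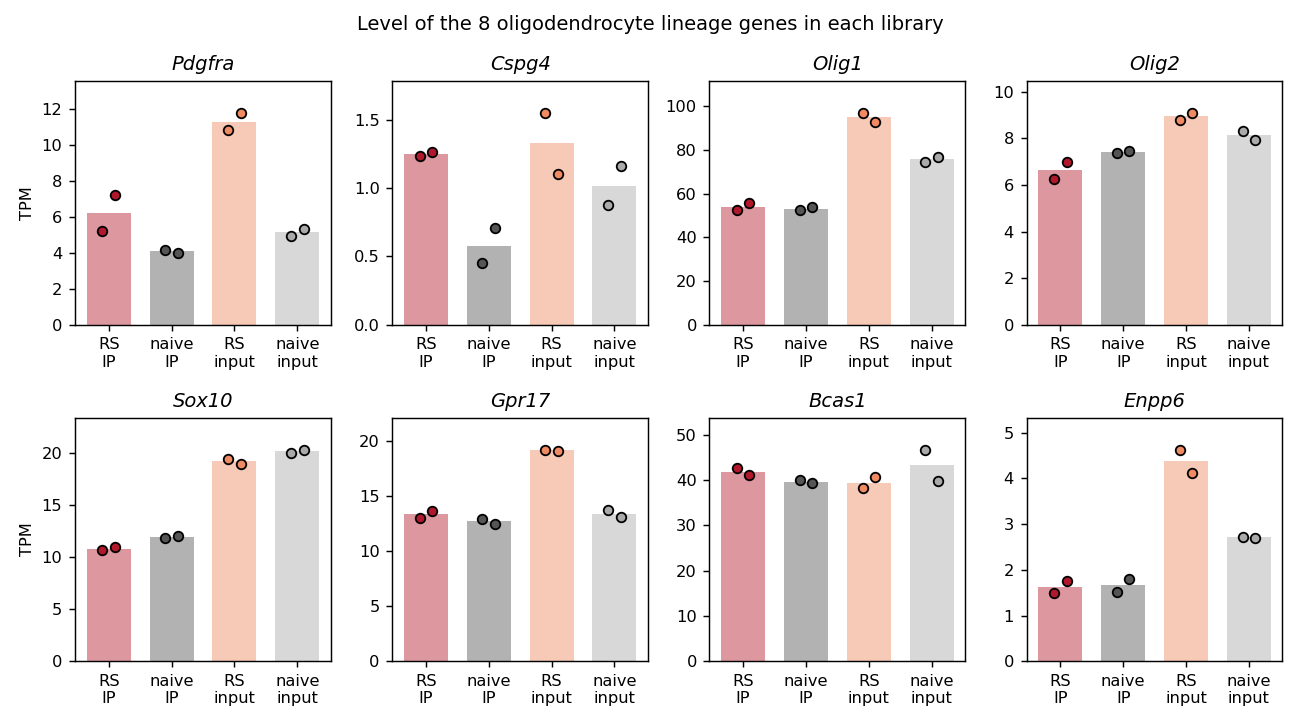
Level in TPM (vertical axes, each from 0) of the 8 genes in each library, by group; points are libraries and bars the mean of the 2 libraries. The 2 RS input libraries of Pdgfra, at 10.8 and 11.8 TPM, lie above every other library of that gene, and Olig1 is lower in all 4 IP libraries than in all 4 input libraries.

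The first question was how the lineage genes behave in the pS6 capture. In RS mice the IP held less of most of them than the input of the same mice. For Olig1 the IP libraries gave 52.5 and 55.6 TPM, against 97.1 and 93.1 TPM in input. For Sox10 they gave 10.6 and 10.96 TPM, against 19.4 and 18.9 TPM in input. Both factors were lower in both IP libraries without overlap, by 0.80 for Olig1 (SE 0.06, adjusted p = 1e-05) and 0.77 for Sox10 (SE 0.08, adjusted p = 4.94e-05) on the scale of log2(TPM + 1). These and all later adjusted p-values come from limma over the 14365 genes kept, two-sided, with Benjamini-Hochberg adjustment, and a gene is called at an adjusted p under 0.05. With n = 2 pools a group, they rest on the spread between libraries of a group, pooled over the 4 groups and moderated over all genes. IP and input of a pool were not paired in this fit.

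Enpp6 stood at 1.49 and 1.76 TPM in RS IP, against 4.63 and 4.12 TPM in RS input, a log2 change of -1.04 (SE 0.13, adjusted p = 0.000176), the largest among the 8 genes. Pdgfra was listed at 5.19 and 7.19 TPM in RS IP, against 10.8 and 11.8 TPM in RS input (log2 change -0.79, SE 0.15, adjusted p = 0.00139). Gpr17, at 13.0 and 13.7 TPM in RS IP against 19.2 and 19.1 TPM in RS input, fell by 0.49 on the log2 scale (SE 0.08, adjusted p = 0.000828). Olig2 showed the smallest of the called changes, with 6.26 and 6.98 TPM in RS IP against 8.80 and 9.10 TPM in RS input (log2 change -0.39, SE 0.10, adjusted p = 0.00821). In each of these 6 genes both IP libraries lay below both input libraries, as they did for 62.5% of all genes, while they lay above for 23.2%.

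Bcas1 and Cspg4 did not follow. Bcas1, a protein of cells that are starting to myelinate, was listed at 42.6 and 41.1 TPM in RS IP, against 38.2 and 40.7 TPM in RS input (log2 change 0.09, SE 0.09, adjusted p = 0.398). Cspg4 was listed at 1.24 and 1.26 TPM in RS IP, against 1.55 and 1.11 TPM in RS input, and its groups overlapped (log2 change -0.04, SE 0.17, adjusted p = 0.822). The IP was thus called lower for 6 of the 8 genes and higher for 0, where 54.9% of all genes tested were called lower and 17.8% higher. The median change of the 8 genes was -0.63, beside -0.42 over all genes.

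In naive mice the same comparison called fewer of them. Sox10 was listed at 11.8 and 12.02 TPM in naive IP, against 19.95 and 20.3 TPM in naive input (log2 change -0.71, SE 0.08, adjusted p = 0.00012). Olig1 gave 52.4 and 53.8 TPM in naive IP, against 74.7 and 76.8 TPM in naive input (log2 change -0.50, SE 0.06, adjusted p = 0.000171). Enpp6 gave 1.52 and 1.81 TPM in naive IP, against 2.71 and 2.71 TPM in naive input (log2 change -0.48, SE 0.13, adjusted p = 0.0126). These 3 of the 8 genes were lower in the IP and 0 were higher, where 49.2% of all genes were called lower and 17.4% higher. Without naive IP replicate 1, Enpp6 was no longer called (adjusted p = 0.0738).

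The remaining genes did not pass in naive mice. Pdgfra was listed at 4.17 and 4.00 TPM in naive IP, against 4.94 and 5.33 TPM in naive input (log2 change -0.27, SE 0.15, adjusted p = 0.134). Gpr17 was listed at 12.9 and 12.5 TPM in naive IP, against 13.7 and 13.1 TPM in naive input (log2 change -0.07, adjusted p = 0.465). Olig2 was listed at 7.37 and 7.46 TPM in naive IP, against 8.33 and 7.92 TPM in naive input (log2 change -0.12, adjusted p = 0.331). Bcas1 stood at 39.9 and 39.4 TPM in naive IP, against 46.7 and 39.8 TPM in naive input (log2 change -0.12, adjusted p = 0.259). Cspg4 stood at 0.451 and 0.706 TPM in naive IP, against 0.875 and 1.16 TPM in naive input (log2 change -0.36, adjusted p = 0.0924). Both IP libraries lay below both input libraries for 7 of the 8 genes, where they did so for 59.5% of all genes and lay above for 24.3%. The median change of the 8 genes, -0.31, was close to that of all genes, -0.32.

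Since the median gene was itself lower in the IP, these calls are relative to the sum of each library. With libraries scaled to a common median of gene ratios, Olig1 (log2 change -0.30), Sox10 (-0.29) and Enpp6 (-0.66) were called lower and Bcas1 higher (0.58) in RS mice, while Pdgfra, Olig2 and Gpr17 were no longer called (33.4% of all genes higher and 31.2% lower). In naive mice only Sox10 stayed lower (-0.35), and Gpr17 (0.28) and Bcas1 (0.26) were called higher (30.9% of all genes higher and 28.7% lower). With a correction for transcript length and GC content, Olig1, Sox10 and Enpp6 were called lower in RS mice (-0.65, -0.41 and -0.37), whereas Pdgfra was at 0.09 and Gpr17 (0.27), Cspg4 (0.90) and Bcas1 (0.51) were called higher (27.9% of all genes higher and 32% lower). In naive mice that correction called Olig1 (-0.42) and Sox10 (-0.47) lower and Pdgfra (0.38) and Gpr17 (0.49) higher (26.5% of all genes higher and 29.9% lower). Lower IP levels of Olig1, Sox10 and Enpp6 in RS mice and of Sox10 in naive mice were therefore the calls that held under all 3 scalings. With IP and input paired by pool under the length and GC correction, fewer genes were called lower in RS mice, as the closing section gives.

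**Figure D2:**
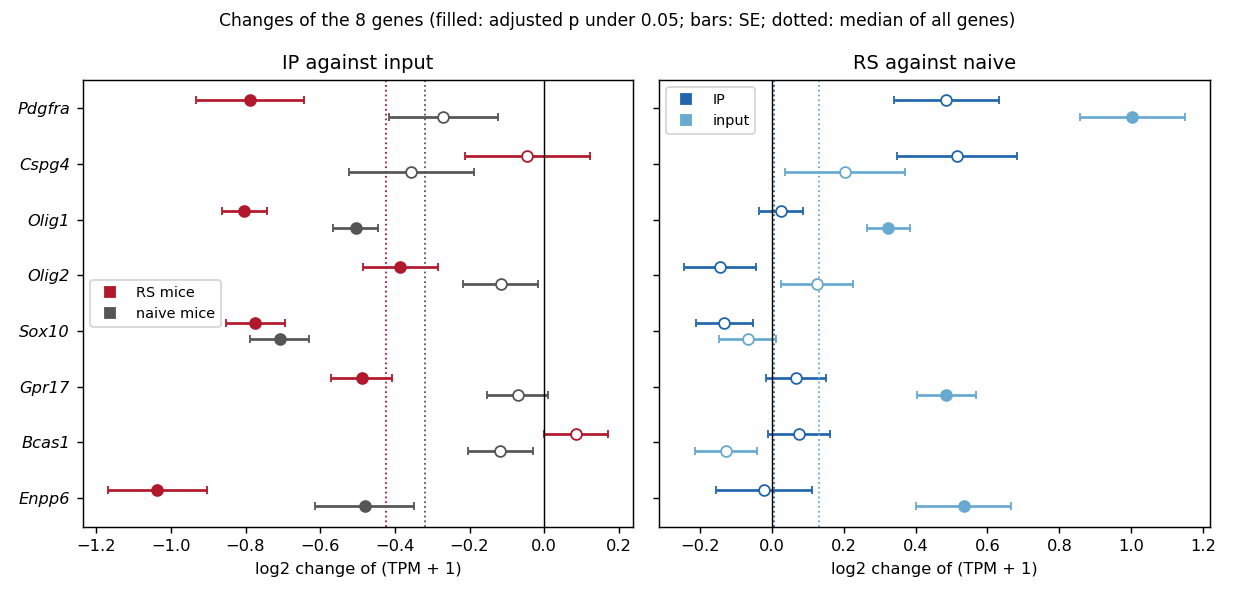
Log2 change of (TPM + 1) of each gene (horizontal axes) for IP against input in RS and in naive mice (left) and for RS against naive mice in IP and in input (right); filled points passed at an adjusted p under 0.05, bars are the model's SE, and dotted lines the median of all genes. Enpp6 in RS mice, at -1.04, is the lowest IP change, and Pdgfra in input, at 1.00, the highest change with restraint.

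The IP to input change was numerically more negative in RS than in naive mice for Enpp6, Pdgfra, Gpr17, Olig1, Olig2 and Sox10, but this difference itself did not pass for any of the 8 genes. The median difference of all genes was itself negative (-0.11), and Sox10 (-0.07) lay above it. For the other members the difference was as follows. The difference was -0.42 for Gpr17 (SE 0.12, adjusted p = 0.0723), -0.30 for Olig1 (SE 0.09, adjusted p = 0.0769), -0.56 for Enpp6 (SE 0.19, adjusted p = 0.112), -0.52 for Pdgfra (SE 0.21, adjusted p = 0.160), -0.27 for Olig2, 0.20 for Bcas1 and 0.31 for Cspg4. Limma called 0 of the 8 genes, where 3.46% of all genes were called lower and 3.29% higher. At an unadjusted p of 0.05, 4 of the 8 genes passed, beside 26.4% of all genes.

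The second question was whether their level differed with restraint. In input 4 of the genes were called higher in RS mice on the deposited scale, and the precursor receptor had the highest change. Pdgfra was listed at 10.8 and 11.8 TPM in RS input, against 4.94 and 5.33 TPM in naive input, so that both RS pools held more than either naive pool. Its ratio of mean TPM was 2.20, and its log2 change was 1.00 (SE 0.15, adjusted p = 0.00303). Gpr17, the receptor of committed precursors, was listed at 19.2 and 19.1 TPM in RS input, against 13.7 and 13.1 TPM in naive input (log2 change 0.49, SE 0.08, adjusted p = 0.00538).

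Olig1 rose less, with 97.1 and 93.1 TPM in RS input against 74.7 and 76.8 TPM in naive input (log2 change 0.32, SE 0.06, adjusted p = 0.00736). Enpp6 was listed at 4.63 and 4.12 TPM in RS input, against 2.71 and 2.71 TPM in naive input (log2 change 0.53, SE 0.13, adjusted p = 0.0210). For these 4 genes and Olig2 both RS libraries lay above both naive libraries, and for Sox10 below, where 48.8% of all genes lay above and 19.3% below. They were called higher and 0 of the 8 genes lower, where 20.3% of all genes were called higher and 8.21% lower. The median change was 0.26, beside 0.13 over all genes.

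Sox10 and Bcas1 did not rise with them. Sox10 was listed at 19.4 and 18.9 TPM in RS input, against 19.95 and 20.3 TPM in naive input (log2 change -0.07, SE 0.08, adjusted p = 0.552). Bcas1 was listed at 38.2 and 40.7 TPM in RS input, against 46.7 and 39.8 TPM in naive input, and the groups overlapped (log2 change -0.13, SE 0.09, adjusted p = 0.303). Olig2, at 8.80 and 9.10 TPM in RS input against 8.33 and 7.92 TPM in naive input, changed by 0.12 (SE 0.10, adjusted p = 0.379), and Cspg4, at 1.55 and 1.11 TPM in RS input against 0.875 and 1.16 TPM in naive input, by 0.20 (SE 0.17, adjusted p = 0.391). The precursor markers Pdgfra and Cspg4 therefore had unlike input values, as did the factors Olig1 and Sox10, although the difference between genes was not tested.

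Only the Pdgfra call held under all 3 scalings. Its log2 change was 0.86 with the median of ratios (adjusted p = 0.0071) and 0.73 with the length and GC correction. Gpr17 was called with the first (0.34) and not with the second, and Olig1 with the second (0.22) and not with the first, while Enpp6 was called with neither. The first called 7.92% of all genes higher and 12.3% lower, and the second 7.42% and 8.07%. The second also called Sox10 lower in RS input (-0.26). Olig1 lost its call without naive input replicate 1 (adjusted p = 0.0546), and Enpp6 lost it without naive input replicate 1, naive input replicate 2 or RS input replicate 1 (adjusted p = 0.0880, 0.0829 and 0.111).

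In the IP, restraint left the 8 genes without a call. Limma called 0 of them, where 1.98% of all genes were called higher and 0.327% lower. At an unadjusted p of 0.05, Pdgfra and Cspg4 passed, 2 of the 8 genes, beside 16.3% of all genes, so this count was near the background. Pdgfra was listed at 5.19 and 7.19 TPM in RS IP, against 4.17 and 4.00 TPM in naive IP (log2 change 0.49, SE 0.15, adjusted p = 0.146). Cspg4 was listed at 1.24 and 1.26 TPM in RS IP, against 0.451 and 0.706 TPM in naive IP (log2 change 0.52, SE 0.17, adjusted p = 0.176). These precursor markers had the highest values in this comparison, and neither passed. The other genes lay between -0.14 for Olig2 and 0.08 for Bcas1. Both RS libraries lay above both naive libraries for 4 of the 8 genes and below for 2, where 25.1% of all genes lay above and 21.2% below. Olig1, for example, was listed at 52.5 and 55.6 TPM in RS IP and 52.4 and 53.8 TPM in naive IP, and these libraries overlapped.

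Ratios of TPM within a library do not change when a library is multiplied by a factor, as the median of ratios does, but the length and GC correction, which moves genes differently, does change them. Expressed as a percent of the Olig1 TPM of the same library, Pdgfra was at 9.88 and 12.9 in RS IP and 7.96 and 7.44 in naive IP, against 11.1 and 12.7 in RS input and 6.62 and 6.94 in naive input. All 4 RS libraries were thus above all 4 naive libraries. Sox10 was at 20.2 and 19.7 percent in RS IP and 22.6 and 22.4 percent in naive IP, and at 19.999 and 20.3 percent in RS input and 26.7 and 26.4 percent in naive input, so that its 4 RS libraries were below its 4 naive libraries. Of all genes, 1.27% had such ratios higher in the 4 RS libraries without overlap and 2.18% lower. These ratios were described and not tested. The 4 libraries of a condition are the IP and input of 2 pools, so they are not 4 separate samples.

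Bcas1, Gpr17, Olig2 and Enpp6 separated the fractions instead. Bcas1 was at 81.2 and 73.8 percent of Olig1 in RS IP and 76.1 and 73.2 percent in naive IP, against 39.3 and 43.7 percent in RS input and 62.6 and 51.8 percent in naive input. Gpr17 was at 24.8 and 24.6 percent in RS IP and 24.6 and 23.2 percent in naive IP, against 19.8 and 20.5 percent in RS input and 18.4 and 17.0 percent in naive input. Olig2 was at 11.9 and 12.5 percent in RS IP and 14.1 and 13.9 percent in naive IP, against 9.06 and 9.77 percent in RS input and 11.1 and 10.3 percent in naive input. Enpp6 was lower in the IP on this measure, at 2.83 and 3.16 percent in RS IP and 2.90 and 3.36 percent in naive IP, against 4.77 and 4.42 percent in RS input and 3.63 and 3.53 percent in naive input. Relative to Olig1, the 4 IP libraries were thus above the 4 input libraries for 3 of the 7 other genes and below for 1, where 38.4% of all genes were above and 20.7% below. These counts were near those of genes at large. Olig1, the denominator, was itself lower in the IP on the deposited scale. The position of Enpp6 depends on the correction: with length and GC, its IP change in RS mice (-0.37) was less negative than that of Olig1 (-0.65).

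**Figure D3:**
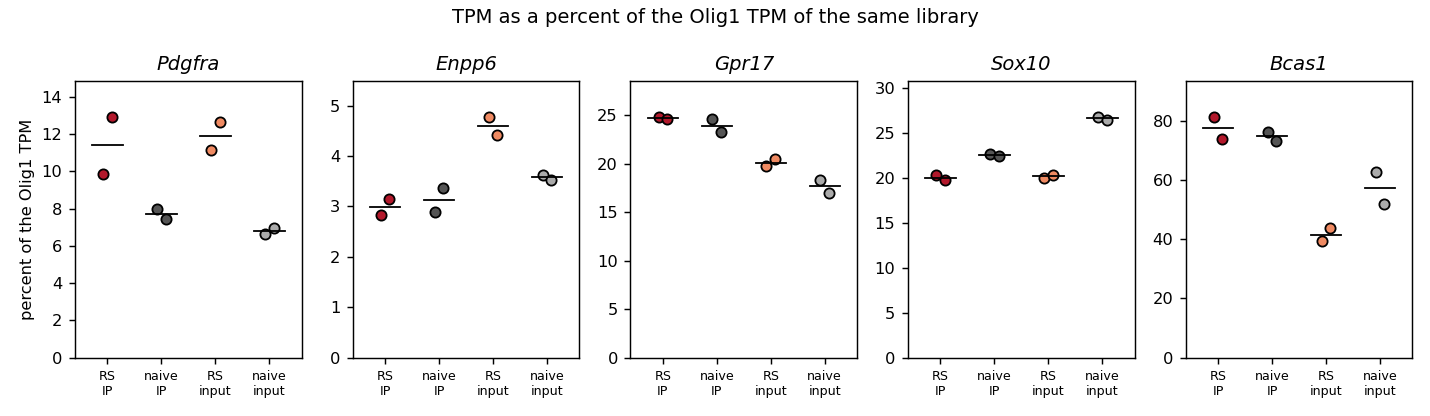
TPM of 5 genes as a percent of the Olig1 TPM of the same library (vertical axes, each from 0), by group; points are libraries and lines the mean of the 2 libraries. Pdgfra is higher in the 4 RS libraries than in the 4 naive libraries, whereas Gpr17 and Bcas1 are higher in the 4 IP libraries than in the 4 input libraries.

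The lineage genes were next set against the myelin genes of mature oligodendrocytes, a list of 15. The myelin genes were called lower in the IP in 14 of 15 cases in RS mice and in 15 of 15 in naive mice, with medians of -1.39 and -1.18. Of all genes, 54.9% were called lower in RS and 49.2% in naive mice, with medians of -0.42 and -0.32. With the median of ratios 12 of the 15 were lower and 1 higher in RS mice, and 12 lower and 0 higher in naive mice. The length and GC correction gave 12 lower in RS and 14 in naive mice, and 0 higher in either. Mbp changed by -1.96 in RS mice (SE 0.04, adjusted p = 1.6e-07) and -1.79 in naive mice (SE 0.04, adjusted p = 2.47e-07), and Mog, a protein of the outer myelin sheet, by -1.77 and -1.51. The 8 genes together made up 4.23 and 4.31 percent of the summed myelin TPM in RS IP and 4.30 and 4.42 percent in naive IP, against 1.94 and 2.07 percent in RS input and 2.20 and 2.15 percent in naive input. The groups of IP and input did not overlap in this share, but its denominator was itself lower in the IP. The myelin list summed to 3146 to 3214 TPM in RS IP and 2975 to 3035 TPM in naive IP. In input it summed to 9577 to 10319 TPM in RS and 7771 to 7824 TPM in naive mice. Olig1 made up 39.5 to 48.6 percent of the members' sum and Bcas1 19.1 to 32.1 percent. How many other genes separate the fractions on this measure was not counted.

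With each value taken relative to the mean log2 of the myelin genes in its library, 7 of the 8 genes were called higher in RS IP than in RS input. Enpp6 missed the threshold (log2 change 0.31, adjusted p = 0.0572), and the others were above it. In naive mice all 8 were called higher, between 0.41 for Sox10 and 1.04 for Gpr17. On this scale 81.4% of all genes were called higher and 2.67% lower in RS IP, and 79.1% higher and 2.41% lower in naive IP, so the members' count was near that of genes at large. Without RS input replicate 1 or RS IP replicate 2, Pdgfra was not called in RS mice (adjusted p up to 0.0571), and without RS IP replicate 1 Enpp6 was called (adjusted p = 0.0480). Between RS and naive mice, 0 of the 8 genes were called in the IP on this scale (1.62% of all genes higher and 0.383% lower), and 2 were under an unadjusted p of 0.05, beside 15.9% of all genes. In input, Pdgfra was higher in RS (0.75, SE 0.16, adjusted p = 0.0111) and Bcas1 (-0.38, adjusted p = 0.0194) and Sox10 (-0.32, adjusted p = 0.0215) lower, where 3.6% of all genes were called higher and 20.7% lower. Without naive input replicate 1 none of these was called, nor was Pdgfra without RS input replicate 2, Bcas1 without RS input replicate 1, or Sox10 without any 1 of the input libraries (adjusted p up to 0.0644, 0.118 and 0.106 for Pdgfra, Bcas1 and Sox10). Taken relative to the median of the myelin genes instead, 4 of the 8 were higher and 0 lower, where 25.2% of all genes were called higher and 4.21% lower and the median of all genes was 0.26. Sox10 then stood at 0.06 and Bcas1 at 0.00, both below that median.

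Other genes of the lineage, from lists by stage, gave a mixed picture. Of 12 other precursor markers 11 were tested. In RS mice 0 were higher in the IP and 6 lower, with a median of -0.40, and in naive mice 1 was higher and 5 lower, with a median of -0.24. Against the median of gene ratios the split was 2 higher and 0 lower in RS and 4 higher and 2 lower in naive mice, and with the length and GC correction 5 higher and 0 lower in RS and 3 higher and 0 lower in naive mice, so the direction of this list depends on the scaling. Ptprz1, a receptor phosphatase of precursors and astrocytes, was lower in both on the deposited scale (-0.65 in RS and -0.79 in naive mice) and in neither with the length and GC correction (0.25 and -0.12), and Matn4, a matrix protein, was higher in naive mice (0.77, SE 0.18, adjusted p = 0.00507). Between RS and naive mice 0 of the 11 passed in the IP and 0 in input, Tnr coming nearest in input (0.52, SE 0.17, adjusted p = 0.0567). The higher Pdgfra in RS input was thus not accompanied by a higher call among these other precursor markers under any of the 3 scalings. With the length and GC correction 1 of the 11 was called lower in RS input.

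Genes of committed precursors and newly formed oligodendrocytes were more often higher than lower in the IP, in 5 of 9 tested genes in RS mice (3 lower, median 0.41) and 6 of 9 in naive mice (2 lower, median 0.40). Of all genes, 17.8% were higher and 54.9% lower in RS mice, and 17.4% higher and 49.2% lower in naive mice. With the median of ratios the list gave 6 higher and 2 lower in RS and 6 higher and 1 lower in naive mice. The length and GC correction gave 7 higher in RS and 8 in naive mice, and 0 lower. Fyn, a kinase of early myelination that neurons use as well, was listed at 92.6 and 97.6 TPM in RS IP, against 58.0 and 52.2 TPM in RS input (log2 change 0.78, SE 0.07, adjusted p = 2.29e-05). Tns3, an adhesion protein, was lower in the IP in RS (-1.16) and in naive mice (-1.01), but was not called with the length and GC correction (-0.25 and -0.30). With restraint, Tcf7l2, a transcription factor of the switch to differentiation that some neurons also express, was listed at 16.3 and 15.7 TPM in RS input, against 6.58 and 7.87 TPM in naive input (log2 change 1.05, SE 0.11, adjusted p = 0.00142). Tmem2 was the other gene of this list to rise in RS input (0.61, SE 0.15, adjusted p = 0.0210), and 0 fell. Under either other scaling Tmem2 was not called and Tcf7l2 was the 1 gene that passed. In the IP 0 of the 9 passed.

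Among 14 other transcription factors of the lineage, the IP was higher for 4 and lower for 9 in RS mice (median -0.87), and higher for 3 and lower for 8 in naive mice (median -0.46). This split was 5 higher and 7 lower in RS and 5 higher and 4 lower in naive mice with the median of ratios, and 4 higher and 5 lower in RS and 3 higher and 3 lower in naive mice with the length and GC correction. Myrf, the factor that turns on myelin genes, was listed at 2.39 and 2.70 TPM in RS IP, against 12.1 and 11.96 TPM in RS input (log2 change -1.88, SE 0.11, adjusted p = 3.45e-06), and changed by -1.73 in naive mice. Id4, which holds back differentiation and is abundant in astrocytes, was higher in the IP in both, by 0.73 in RS and 1.25 in naive mice. The difference between the RS and naive IP to input changes passed for Id4 (-0.52, adjusted p = 0.0350) and Zfp488 (-1.01, adjusted p = 0.0458). With the median of ratios neither was called (adjusted p = 0.0565 for Id4 and 0.0700 for Zfp488), and with the length and GC correction Id4 alone was (adjusted p = 0.0478). In RS input 7 of the 14 were higher and 1 lower, and Prox1 (0.71), Sox6 (0.67) and Id4 (0.59) were among those that were higher. With the median of ratios this split was 3 higher and 2 lower, and with the length and GC correction 2 higher and 0 lower.

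Ligands and receptors that act on the lineage included the ligand of PDGFRα. Pdgfa was listed at 48.5 and 44.5 TPM in RS IP, against 59.2 and 60.03 TPM in RS input, and was lower in the IP in RS (-0.35, SE 0.08, adjusted p = 0.00364) and in naive mice (-0.21, SE 0.08, adjusted p = 0.0396) on the deposited scale. These values lie above the medians of all genes (-0.42 and -0.32). With the median of ratios they turned to 0.15 and 0.16 and were not called, and with the length and GC correction Pdgfa was called in RS (-0.24) and not in naive mice (-0.08). It did not pass between RS and naive mice in input (0.13, adjusted p = 0.237), where its receptor did. Of the 11 tested genes of this list, 3 were higher and 3 lower in RS IP than in RS input, and 5 higher and 3 lower in naive IP than in naive input. With the median of ratios these counts were 8 and 1 in RS and 7 and 1 in naive mice, and with the length and GC correction 8 and 2 in RS and 7 and 1 in naive mice. Lpar1, a lysophosphatidic acid receptor of myelinating cells, was the lowest in the IP in both RS (-1.78) and naive mice (-1.40), whereas Gpr37 and Lingo1, which neurons express as well, were higher (0.48 and 0.38 in RS, 0.88 and 0.80 in naive mice). In RS input 7 were higher than in naive input and 0 lower, against 3 higher with the median of ratios and 2 with the length and GC correction. In RS IP 1 gene was higher than in naive IP under each of these scalings. On the deposited scale it was Fgfr3 (0.74, adjusted p = 0.0403), which astrocytes express strongly.

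**Figure D4:**
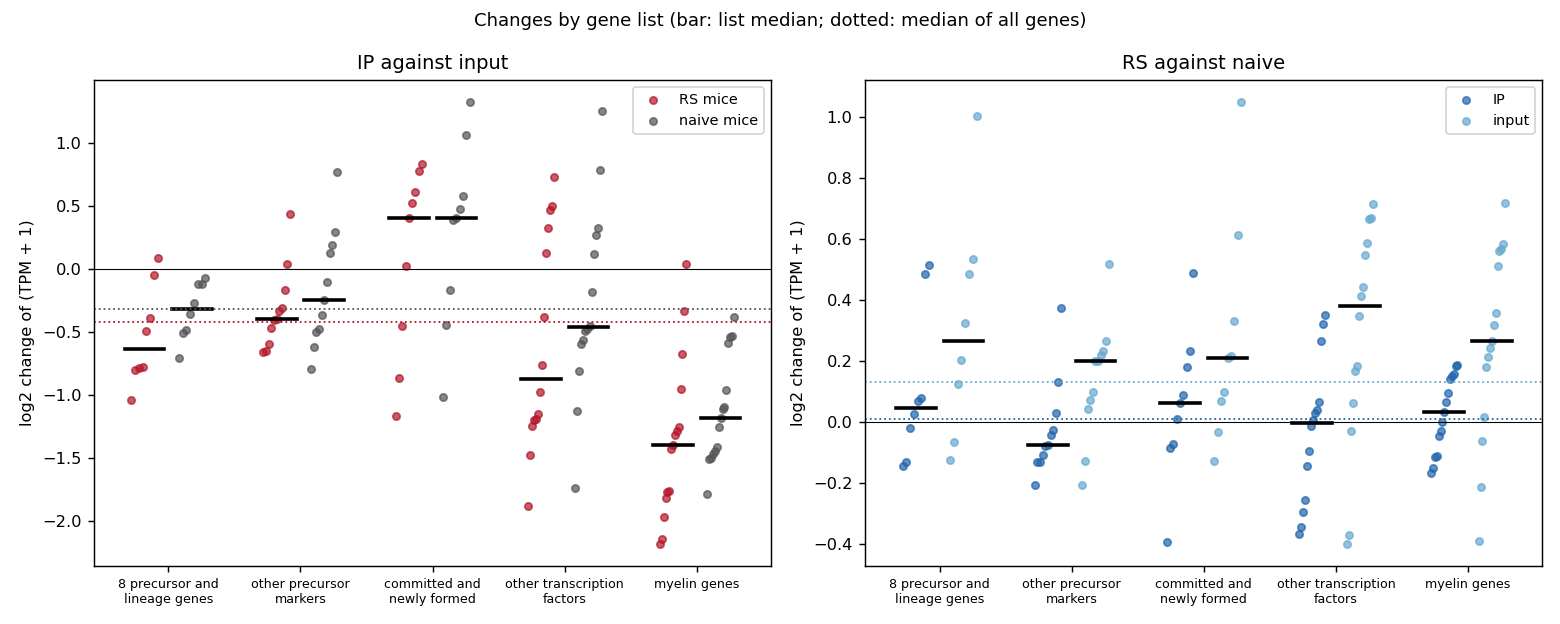
Log2 change of (TPM + 1) (vertical axes) of every tested gene of 5 lists for IP against input (left) and RS against naive (right); points are genes, bars list medians and dotted lines the median of all genes. The myelin list lies lowest in the IP, with medians of -1.39 in RS and -1.18 in naive mice, and the list of committed and newly formed cells lies above 0 by its median in both.

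Cells outside the lineage also carry some of these genes. Fibroblasts of the meninges express Pdgfra, and mural cells of vessels express Cspg4. The 10 meningeal fibroblast markers summed to 56.0 to 60.1 TPM in RS IP and 88.8 to 101 TPM in naive IP, against 29.3 to 30.9 TPM in RS input and 41.0 to 49.1 TPM in naive input. Of the 8 tested genes, 0 were called higher and 1 lower in RS input than in naive input, and their part in the Pdgfra values was not tested. The 11 mural markers summed to 113 to 114 TPM in RS IP and 101 to 104 TPM in naive IP, against 65.2 to 66.7 TPM in RS input and 89.1 to 92.0 TPM in naive input. Of the 7 mural markers tested, 1 was called higher and 1 lower in RS IP than in naive IP, and 0 higher and 4 lower in RS input than in naive input. No marker of either list was at 0 in all libraries, and Abcc9 was the only one listed at 0 in any, in both naive IP libraries. The part of mural cells in the Cspg4 values was not tested.

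Markers of other cells also differed between RS and naive libraries. The 7 choroid plexus and ependymal markers, led by Ttr, summed to 2087 to 2110 TPM in RS IP and 79.7 to 94.4 TPM in naive IP, and to 328 to 381 TPM in RS input and 91.1 to 97.5 TPM in naive input. Ttr, of the choroid plexus, alone gave 2009 and 2029 TPM in RS IP, against 29.03 and 29.1 TPM in naive IP. Of the 7 genes, 4 were called higher and 0 lower in RS IP than in naive IP, and 3 higher and 1 lower in RS input than in naive input. The lower one was the ependymal gene Ccdc153, with 40.1 and 38.4 TPM in RS input against 55.3 and 64.6 TPM in naive input, and with the length and GC correction 2 genes of the list were higher and 0 lower. The 9 astrocyte markers summed to 1821 to 1873 TPM in RS IP and 1467 to 1490 TPM in naive IP, and to 1757 to 1827 TPM in RS input and 1557 to 1577 TPM in naive input. In RS input 9 of the 15 myelin genes were higher than in naive input and 1 was lower, with a median of 0.27. Of all genes 20.3% were called higher and 8.21% lower there, with a median of 0.13. For the myelin genes the median of ratios gave 6 higher and 2 lower (median 0.12). The length and GC correction gave 6 higher and 1 lower (median 0.16). These differences in markers ran with restraint in the same libraries as the higher Pdgfra, Gpr17, Olig1 and Enpp6, and their part in those results was not tested.

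Finally, each gene's pattern over the 8 libraries was set against that of every gene with a mean of at least 5 TPM, by the root mean square difference of log2(TPM + 1) after removing each gene's mean. The genes most like each member were not others of the 8. Each was picked from at least 9366 genes, and Cspg4 and Enpp6, under 5 TPM on average, could not be picked, so little follows from this. Olig1 was nearest to Rxrg (0.0289), Sox10 to Msl1 (0.0294), Olig2 to Vrk3 (0.0325), Gpr17 to Numb (0.0460) and Enpp6 to Atp9a (0.0465). Pdgfra had no gene as near, its closest being Slc12a4 (0.124). Within the 8 genes the nearest pair was Enpp6 and Olig1 (0.101), and at least 146 of 9367 genes were nearer to Enpp6 than Olig1 was. The farthest pair was Bcas1 and Pdgfra (0.515), and 7101 of 9366 genes were nearer to Bcas1 than Pdgfra was. Whether the 8 genes were more alike than other genes was not tested.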

How the data were processed

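PhosphoTrap libraries of mouse lateral septum (IP and input; 2 pools per group) were analysed from 1 value column per library. The deposited columns are named FPKM, but each sums to 1000000, so they were taken as TPM. STAR, DESeq2 and mm10 appear in the submitters' processing notes, TopHat and Cufflinks in the published methods, and which tools the authors used for these columns is not stated. Depth is unknown, so precision rests on the spread between 2 pools, and no counting interval can be given. Rows whose symbols had become dates (26) were left out.

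A gene was kept when 2 or more of the 8 libraries reached 1 TPM (14365 genes), and log2(TPM + 1) was fitted over all 4 groups with limma 3.58.1 in R 4.3.3 (lmFit, eBayes with trend; 4 residual and 3.92 prior degrees of freedom). The 5 comparisons were IP against input in RS and in naive mice, the difference between those changes, and RS against naive in IP and in input. Folds on this scale understate changes of low genes. A second fit took values relative to the mean log2 of 15 myelin genes in each library. The fits were tested on simulated data.

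Named genes were the 8 members, up to 4 genes a list and comparison by size of the moderated statistic, and for each member the genes of most similar pattern; some of these are printed. Outside this rule, Pdgfa was named for its role, Lims2 and Bcas1os2 for their overlap, and Ttr, Abcc9 and Ccdc153 after their values were seen. The members and lists were chosen with earlier results of these data known. Alternatives were another pseudocount (0.1), no filter, median-of-ratios scaling, a length and GC correction (values for 99.07% of kept genes), only the groups compared, no trend, a replicate block, the median of the myelin list, and each library left out in turn.

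Input and IP of a number in a condition come from the same pool per the labels, which have RNA kept back before capture; equal numbers in RS and naive are different mice. Deviations of same-numbered IP and input libraries correlated across genes at -0.0457 in RS and -0.0637 in naive mice, and RS with naive at -0.0531 in IP and 0.159 in input.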

Additional observations from a re-analysis of the deposited data

How the results depend on the processing

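Of 1176 recomputed values of the 8 genes, 1075 kept their direction and side of the threshold. With the direction kept, 33 lost a call and 11 gained one, and 57 changed sign, with or without a change of call. The replicate block, pairing IP and input of a pool, changed no call: members called lower stayed at 6 in RS and 3 in naive IP, and 4 were higher in RS input. The cause of the changes that follow was not tested.

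With the median of ratios, calls in naive IP were 2 higher and 1 lower, in RS IP 1 higher and 3 lower, and in RS against naive input 2 higher. Log2 changes turned to 0.0437 (Pdgfra), 0.22 (Olig2), 0.28 (Gpr17) and 0.26 (Bcas1) for IP against input in naive mice, 0.24 (Cspg4) and 0.0667 (Olig2) in RS mice, 0.0547 (Sox10) for the difference between those, and -0.0077 (Olig2) for RS against naive input. With the length and GC correction, calls in naive IP were 2 higher and 2 lower, in RS IP 3 higher and 3 lower, and in RS against naive input 2 higher and 1 lower. With the replicate block added, the higher calls stayed at 2, 3 and 2 in these comparisons. The lower calls fell to 2 in RS IP and to 0 in RS against naive input. Both gave 0.38 (Pdgfra), 0.32 (Cspg4), 0.13 (Olig2), 0.49 (Gpr17) and 0.24 (Bcas1) for naive IP, 0.0867 (Pdgfra), 0.898 (Cspg4) and 0.27 (Gpr17) for RS IP, 0.0643 (Sox10) for the difference, -0.0149 (Olig1) for RS against naive IP, and -0.15 (Cspg4) and -0.0169 (Olig2) in input.

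Relative to the myelin genes, RS against naive IP turned to -0.000736 (Olig1) with the median of ratios, to -0.0214 (Olig1) and -0.00437 (Gpr17) with the length and GC correction, with or without the block, and to -0.0703 (Olig1), -0.0282 (Gpr17) and -0.0193 (Bcas1) with the list's median. In input, Cspg4 turned to 0.000758 with the median of ratios and 0.0865 with a pseudocount of 0.1. The list's median, which put the median of all genes at 0.26 in input and called 25.2% of all genes higher there, gave 4 members higher and 0 lower, with 0.33 (Cspg4), 0.25 (Olig2), 0.0623 (Sox10) and 0.00238 (Bcas1), and the groups compared alone gave 1 lower.

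Leaving out each replicate in turn gave 2 to 4 members called higher in RS against naive input, and 2 to 3 lower in naive IP. Relative to myelin genes it gave 0 to 1 higher and 0 to 2 lower in input. Values ranged from -0.183 to 0.0934 for Cspg4 in RS IP against input, from -0.0995 to 0.0557 for Enpp6 and -0.0157 to 0.0664 for Olig1 in RS against naive IP, and, relative to myelin genes, from -0.141 to 0.0467 (Enpp6), -0.0612 to 0.0612 (Olig1) and -0.0104 to 0.0946 (Gpr17) there and -0.163 to 0.0561 (Cspg4) in input. Where an omission leaves 1 library in a group, that library is assumed to vary like the other groups. Depth is unknown, which limits what can be said of low genes such as Cspg4 and Enpp6, the lowest of the members by mean TPM.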
